A study of Caenorhabditis elegans with 2 samples.

Results

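Divergent promoters are stretches of DNA that lie between the starts of genes read away from each other on opposite strands. Autosomal promoter peaks of the transcription factor CEH-20 that sit between such genes are described here. A peak was a member when it was in the authors' conservative list, lay off the X chromosome, had its summit at most 500 bp from the start of a protein-coding transcript, and had such starts on both strands within 1000 bp. Peaks within 200 bp of a transfer RNA gene were left out. Of the 2522 peaks of that list, 1892 were autosomal, 780 of those were promoter proximal, 240 had starts on both strands, and 5 of these lay near a transfer RNA gene. This left 235 members, or 9.32% of the list (exact 95% interval 8.21 to 10.5) and 30.1% of the autosomal promoter peaks. The choice used positions only, never the strength of a peak.

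The peaks come from chromatin immunoprecipitation followed by sequencing (ChIP-seq) in whole Caenorhabditis elegans at the L4 larval stage, 49 hours, synchronised by starvation of bleached populations at L1. Both samples were of strain RW12211, in which a CRISPR insertion (st12211) on chromosome III puts the tag TY1::EGFP::3xFLAG on the ceh-20 gene itself, and the sample descriptions give an antibody against GFP for the pull-down, while the labels' antibody field names ceh-20. The 2 samples are biological replicates of 1 group, so there is no contrast of conditions, and control libraries were not analysed here. Chromatin came from all cells of the animal, so strong binding in few cells and weak binding in many cannot be told apart.

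CEH-20 belongs to the PBX family of TALE homeodomain proteins, which bind DNA as partners of Hox and Meis-type proteins. In worms it is known for its part in the development of the mesoderm, the vulva and migrating neuroblasts. Divergent promoters give a pair of genes a shared nucleosome-poor region. In a compact genome such as that of C. elegans many genes are arranged in this way.

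The label was checked against the annotation. The summit lay between a minus-strand start on its left and a plus-strand start on its right in 215 of the 235 members (91.5%, exact 95% interval 87.2 to 94.7). Another 14 summits lay beside such a head-to-head pair of starts, and in 6 the starts of the opposite strands were not in head-to-head order. A member is named below by the nearest gene on each strand, the minus-strand gene first.

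The windows from 50 bp before to 50 bp after the summits of the 4 strongest members with printable sequence, and of the strongest such member with each of a few motifs, show what DNA lay under the peaks. Sequences are from RefSeq (WBcel235, the same assembly as ce11), plus strand, and hold no annotated exon. Capitals mark the words GAGAGA and CGTCTC, the E-box CACGTG and the PBX-Meis composite TGATTGAC, on either strand. The members are K01G5.10|tasp-1 (chrIII:10759206-10759306), rpl-15|K11H12.8 (chrIV:654867-654967), F44E5.4|F44E5.5 (chrII:11759432-11759532), rpl-20|Y17G9B.5 (chrIV:4750015-4750115), R107.5|cls-2 (chrIII:9054007-9054107) and tag-65|ccz-1 (chrV:13678680-13678780).
K01G5.10|tasp-1: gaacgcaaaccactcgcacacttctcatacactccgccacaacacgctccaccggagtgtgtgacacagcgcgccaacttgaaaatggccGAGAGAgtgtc
rpl-15|K11H12.8: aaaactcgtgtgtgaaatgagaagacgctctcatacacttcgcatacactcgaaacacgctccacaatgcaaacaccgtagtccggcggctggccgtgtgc
F44E5.4|F44E5.5: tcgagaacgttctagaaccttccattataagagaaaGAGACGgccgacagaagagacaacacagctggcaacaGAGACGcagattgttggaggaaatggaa
rpl-20|Y17G9B.5: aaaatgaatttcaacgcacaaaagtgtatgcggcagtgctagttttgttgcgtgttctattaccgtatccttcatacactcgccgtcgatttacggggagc
R107.5|cls-2: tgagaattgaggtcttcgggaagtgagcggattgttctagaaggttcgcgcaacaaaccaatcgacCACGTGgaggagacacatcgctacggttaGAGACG
tag-65|ccz-1: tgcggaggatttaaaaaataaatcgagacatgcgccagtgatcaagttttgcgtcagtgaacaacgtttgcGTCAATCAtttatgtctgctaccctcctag

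Many of the strongest members had a gene of protein synthesis or protein folding on 1 side. Among the 15 strongest, 6 had a cytosolic ribosomal protein gene and 4 a listed chaperone gene within 1000 bp of the summit. Over all 235 members these counts were 25 and 14. At rpl-20, rps-19, rps-12, cct-8, hsp-90 and hsp-60 the start of the other gene was nearer to the summit. The top member had no listed gene. The signal is the authors' measure of how strong a peak is, in units that the sources used here do not name. No input or other factor's ChIP-seq was analysed, so how much of the signal such promoters also give with other factors was not tested. A signal for each replicate was taken from that replicate's own ranked list, at the peak that holds the member's summit.

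The top member lay on chromosome III at 10759120 to 10759397, 51 bp from the start of tasp-1, a homologue of the protease taspase, and 734 bp from that of K01G5.10. Its signal was 719 in the conservative list, 351 in replicate 1 and 362 in replicate 2. It was the highest member in all 3 lists.

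Next came rpl-15|K11H12.8 on chromosome IV (654811 to 655038), where rpl-15 codes for a protein of the large ribosomal subunit. The signal was 524, with 252 in replicate 1 and 275 in replicate 2. Its summit lay nearly midway, 341 bp from rpl-15 and 473 bp from K11H12.8. At rpl-20|Y17G9B.5, another large-subunit gene on the same chromosome, the signal was 505, with 248 and 251 in replicates 1 and 2. The replicates differed little at these peaks beside the range over all members.

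F44E5.4|F44E5.5 on chromosome II (11759298 to 11759663) is a head-to-head pair of Hsp70-family chaperone genes. Its signal was 518, with 271 in replicate 1 and 250 in replicate 2, and the summit stood 171 bp and 180 bp from the starts. The genes are near copies of each other, and 78 of the 328 words of 25 letters between their starts (23.8%) recur there as an inverted copy. How reads that match both copies were placed was not examined, so this signal is given as uncertain.

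The next members had genes of protein folding, translation and chromatin at their sides. At cct-8|Y55F3AR.2, where cct-8 codes for a subunit of the chaperonin that folds actin and tubulin, the signal was 404, with 207 and 198 in replicates 1 and 2. At drr-2|set-16, which joins an eIF4H-like gene and a gene for an MLL-type histone methyltransferase, it was 383, with 184 and 202. rpl-12|lin-54 stood at 376, with 189 and 183, and its summit was 30 bp from rpl-12 and 363 bp from lin-54, a DNA-binding subunit of the DREAM complex. Each of these had a close value in both replicates.

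Below them, R107.5|cls-2 (cls-2 codes for the microtubule protein CLASP) had a signal of 339, with 172 and 157 in replicates 1 and 2. The ribosomal pairs rpl-7A|set-21, rps-19|hsr-9 and ska-3|rps-12 stood at 322, 317 and 288 in the conservative list. Chaperone genes followed, with C47E8.4|hsp-90 at 316, Y22D7AL.10|hsp-60 at 280 and supr-1|dnj-28, a J-domain gene, at 278. At the last of these, 60 of the 551 words of 25 letters between the starts (10.9%) also recur as an inverted copy. The gene iff-2, which codes for the translation factor eIF5A, shared its 296 with F54C9.14. The 15 strongest members were all in the lists of both replicates, which come from the same libraries as the signal that ranked them. In 7 of the 15 the signal of replicate 1 was the higher one.

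Over all members the signal had a median of 98.4, with quartiles of 75.3 and 141.7 and a range of 2.39 to 719. The most alike class are the 506 autosomal promoter peaks with protein-coding starts on only 1 strand within 1000 bp, called one-strand peaks from here on. Their median was 84.3 (quartiles 67.4 and 117.1), that of the 1151 other autosomal peaks 82.5 and that of the 630 X peaks 80.5. The distribution of members lay to the right of the others over most of its length, while the highest signal, 735, was that of a one-strand peak. These are descriptions of 1 list, with no test. At the weak end, 6 members had a signal under 20 and 9 had a q-value above 0.05. The 6 weak members, among them ruvb-1|tofu-1 at 2.39, nxf-1|C15H11.11 at 6.76 and T27E9.2|ant-1.1 at 15.8, had no ranked peak over their summit in either replicate. Each of the 6 overlapped a stronger member at the same genes, as at ruvb-1|tofu-1 (125.7), nxf-1|C15H11.11 (68.2) and T27E9.2|ant-1.1 (137). With R11A5.6|pck-2, at 26.9 and 122, there were 7 such overlapping pairs, so the 235 members include 7 weaker second peaks.

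**Figure D1:**
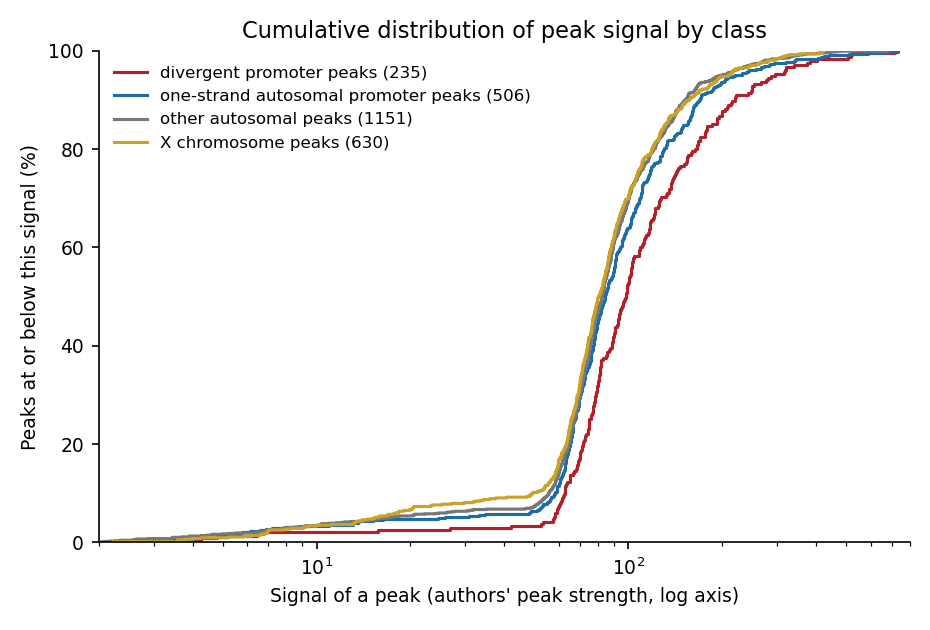
Cumulative share of peaks (vertical axis, percent) at or below a given signal (horizontal axis, the authors' peak strength, log scale), for members, one-strand autosomal promoter peaks, other autosomal peaks and X peaks of the conservative list. The curve of the 235 members runs to the right of the others, with a median of 98.4 against 84.3 in the 506 one-strand peaks.

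Each replicate also has its own thresholded list. Of the 235 members, 113 overlapped a peak of both lists (48.1%, exact 95% interval 41.5 to 54.7), 19 only that of replicate 1, 44 only that of replicate 2 and 59 neither (25.1%). One-strand peaks were in both lists in 185 of 506 cases (36.6%, 32.4 to 40.9) and all conservative peaks in 34.1%. The strength of a member went with its place in the lists. Both come from the same 2 libraries, so this relation is a description and no independent check. Of the 59 strongest members 58 were in both lists, of the next 59 there were 44, of the 59 after those 7, and of the 58 weakest 4. Each of these 4 was the weaker of an overlapping pair of members. With the summit required inside the replicate's peak, 109 of the 235 (46.4%) were in both lists. Weaker members were thus seldom in both lists, though many were in 1 of them. Counted by overlap, the median signal was 68.2 in members of neither list. It was 81.4 in those of replicate 1's list only and 90.0 in those of replicate 2's list only.

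A ranked peak held the summit of 225 members in replicate 1, with signals of 27.7 to 351 and a median of 50.9. In replicate 2 it was also 225 members, from 25.1 to 362 with a median of 49.6. Over the 221 members with a value in both, Spearman's rho was 0.728 and Pearson's r of the log10 signals was 0.841, and 123 of them were higher in replicate 1. These points share 2 libraries and the same calling, and the correlation is given as a description. The members also come from a list kept after a threshold on the irreproducible discovery rate. How much of the correlation goes with that selection was not tested. Among single members, F29B9.11|jmjd-1.2, the latter a histone demethylase gene, stood at 54.6 in replicate 1 and 94.5 in replicate 2. R186.8|lin-46 went the other way, with 90.5 and 46.3, while ndk-1|F25H2.6 had 66.0 and 105.4.

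**Figure D2:**
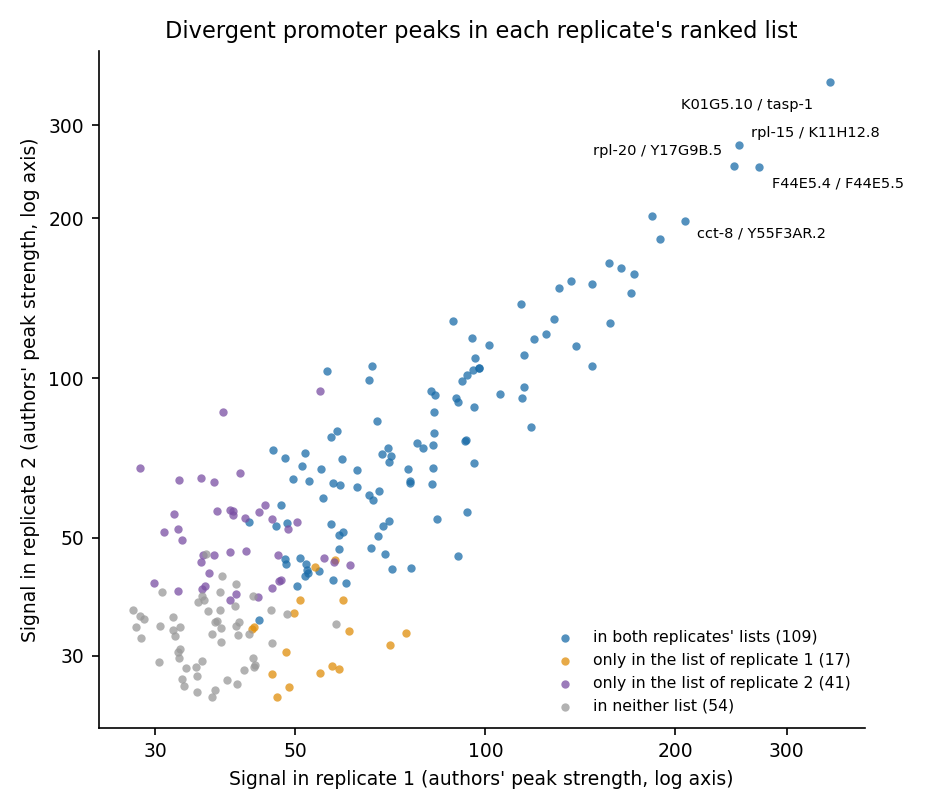
Signal of each member in the ranked list of replicate 1 (horizontal axis) and of replicate 2 (vertical axis), both the authors' peak strength on log scales, coloured by the thresholded lists that hold the member. The 221 members with a value in both replicates rise together, and those in both lists fill the upper end, led by K01G5.10|tasp-1 at 351 and 362.

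Summits lay at positions from close beside 1 start to midway between the genes. In the 215 members whose summit lies between head-to-head starts, the flanking starts (the nearest minus-strand start to its left and plus-strand start to its right) were a median of 559 bp apart (65 to 1506). In 15 of the 215 another start of the same strand, on the other side of the summit, was nearer. The nearer flanking start was a median of 159 bp away and the farther one 382 bp. In 89 of the 215 (41.4%, exact 95% interval 34.7 to 48.3) the nearer start was closer than 25% of the space between the starts. The median distance to the nearer start was 29.4% of that space. Whether summits differ from an even spread was not tested. Of the flanking starts, the minus-strand one was the nearer in 109 of 215 (50.7%, 43.8 to 57.6). Strands are named by the orientation of the assembly, so this share is a description and no test of a preference. Both starts were within 500 bp in 144 of the 215 (67.0%).

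Single members show the range of this geometry. In ctf-4|eef-1G, where eef-1G codes for a subunit of elongation factor 1, the summit stood 27 bp from eef-1G and 153 bp from ctf-4, a gene of DNA replication. In clsp-1|eef-2 it was 4 bp from eef-2, which codes for elongation factor 2, and 261 bp from clsp-1. In R107.5|cls-2, in contrast, the starts were 1258 bp apart and the summit was 267 bp from R107.5.

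Spacing and strength showed little relation. The median signal was 103 in the 41 members with starts at most 300 bp apart and 100.5 in the 79 members at 301 to 600 bp. It was 93.6 in the 73 members at 601 to 1000 bp and 97.6 in the 22 members with more than 1000 bp. The quartiles of these groups overlapped throughout. The nearest start of either strand was a median of 138 bp away over all members and 214 bp in one-strand peaks. Near the limits of the rule, 4 members had their nearest start at 451 to 500 bp (median signal 72.1), and 3 peaks just outside had it at 501 to 550 bp (105). With the farther strand at 901 to 1000 bp there were 9 members (99.1), and just outside, at 1001 to 1100 bp, 12 peaks (76.1).

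**Figure D3:**
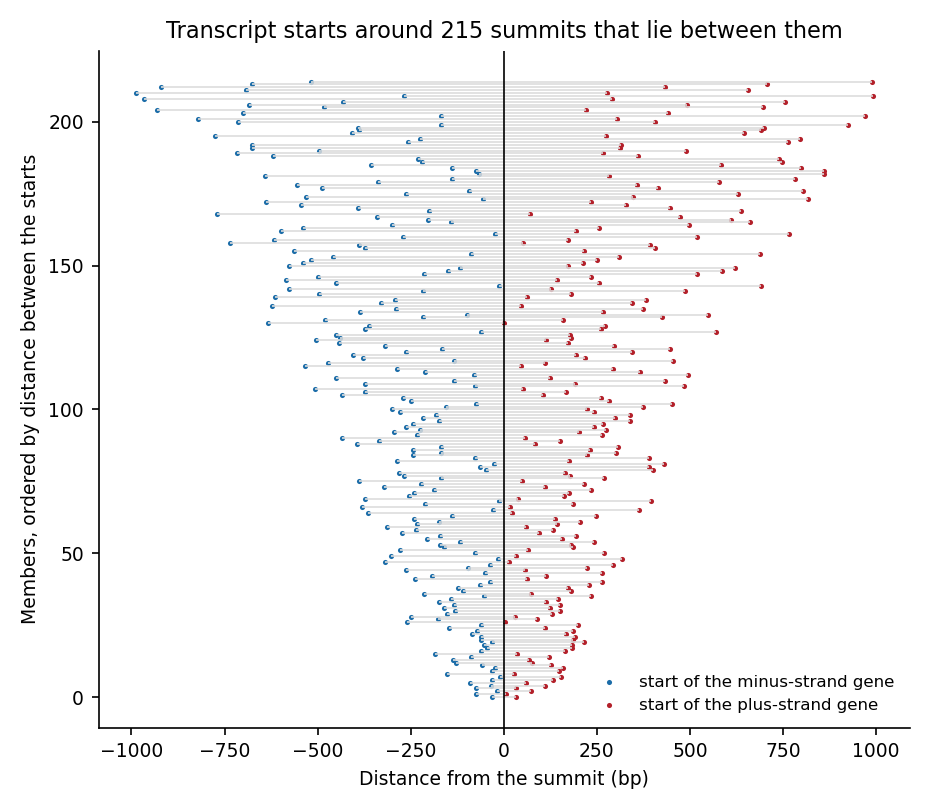
Distance in bp from the summit (0, vertical line) to the flanking minus-strand start on its left (blue) and plus-strand start on its right (red) for the 215 members whose summit lies between head-to-head starts, ordered by the distance between them. Summits lie at distances from close beside 1 start to midway, and the nearer start is the minus-strand one in 109 of 215.

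Most divergent promoters of the genome had no such peak. The annotation gives 1771 autosomal pairs of neighbouring protein-coding genes with head-to-head starts at most 1000 bp apart, and 180 of them (10.2%, exact 95% interval 8.80 to 11.7) held a member summit. A pair was a minus-strand start and the very next start to its right, on the plus strand. This is stricter than the flanking starts used above, so 182 member summits count here, against 215 there. The share was 3.75% (1.81 to 6.78) where the starts were 1 to 200 bp apart. At 201 to 400 bp it was 11.2%, at 401 to 600 bp 12.3%, at 601 to 800 bp 12.5% and at 801 to 1000 bp 8.49%. The shortest class lay below the next 3, and its interval did not reach theirs. Shorter spaces also offer fewer positions to a summit, whose part in this was not tested.

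Per unit of sequence, these spaces held 209 summits per Mb (182 summits). The 500 bp upstream of starts with no opposite start within 1000 bp held 51.1 per Mb (451 summits). The head-to-head spaces have a start at either end, while these upstream stretches have a start only at their downstream end. The densities are therefore not a measure per start, and a preference for divergent promoters was not tested. By chromosome, pairs held a member in 10.6% of cases on I, 8.16% on II, 15.7% on III (11.8 to 20.2), 9.42% on IV and 7.99% on V (5.63 to 10.9). Chromosome III, which also carries the tagged ceh-20 gene, had 59 of the members, against 39 to 47 on each of the others. The intervals of III and V, the highest and the lowest share, did not overlap, nor did those of III and II (5.49 to 11.6). That of III overlapped those of I (7.60 to 14.4) and IV (6.49 to 13.1).

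Ribosomal protein genes and chaperone genes had the highest shares of pairs with a member among the lists with at least 10 paired genes. Over all 3513 autosomal genes in head-to-head pairs, 10.3% had a member summit in their pair (361 genes). Among cytosolic ribosomal protein genes it was 26 of 48 (54.2%, exact 95% interval 39.2 to 68.6). Among chaperone and heat shock genes it was 15 of 30 (50%, 31.3 to 68.7). In both lists the lower end of the interval lay above the share of all paired genes. An earlier reading of these data had shown ribosomal protein genes to be bound often, so that list is not independent evidence.

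The ribosomal protein genes came with 25 members, whose signal ran from 58.1 to 524 with a median of 122. The 210 members without such a gene had a median of 96.6. Of the 25, 14 were in the lists of both replicates and 7 in neither. In 11 of the 25 the nearest start was that of the ribosomal protein gene, and in the other 14 it was the neighbour's. rpl-25.2|C34B7.1 had a signal of 266, with 128 and 129 in replicates 1 and 2. The lowest was col-38|rpl-5, with rpl-5 sharing its space with a cuticle collagen gene, at 58.1, with 28.4 and 32.4, and it was in the list of neither replicate.

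A pair of members had ribosomal protein genes on both sides and were picked out after their values were seen. rpl-39|rps-30 had a signal of 122, with 65.4 in replicate 1 and 60.1 in replicate 2. rps-14|rpl-36 had 93.4, with 39.4 and 56.5. Both sat near the middle of the members' range.

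The chaperone list came with 14 members, of median signal 187 and range 79.3 to 404. Both lists held 9 of them, the list of replicate 2 alone held 4, and 1 was in neither. Beside cct-8, hsp-90, hsp-60 and dnj-28, F54D5.9|dnj-13, an Hsp40 gene, had a signal of 249, with 125 and 121 in replicates 1 and 2. hsp-110|rpn-3, which joins a large Hsp70-type chaperone and a regulatory subunit of the proteasome, had 199, with 105.5 and 93.3. At dnj-19|nhr-47 it was 195, with 95.7 and 103.8. The space between the small heat shock genes hsp-16.2 and hsp-16.41, picked out after its value was seen, had 89.7, with 32.1 and 55.6, and was in the list of replicate 2 alone.

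Translation factors held 5 of 25 (20%) and their 5 members were in both lists, with a median signal of 192. Beside iff-2, eef-2 and eef-1G they included eef-1A.1|rfc-4, at 138, which joins elongation factor 1 alpha and a subunit of the clamp loader of DNA replication. The mitochondrial respiratory chain was at 5 of 20 (25%), with mcrs-1|atp-1 (ATP synthase alpha subunit) at 221, jmjd-4|mev-1 (succinate dehydrogenase subunit) at 144 and Y71H2AM.20|cox-6B at 122. Mitochondrial ribosomal protein genes were at 4 of 27 (14.8%), and none of their 5 members was in both lists. The median signal of these 5 was 74.1, below that of all members.

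Other lists of basic functions had shares whose intervals held 10.3%. Splicing factors were at 6 of 34, led by prp-19|K10D2.5 at 192, and rsp-2|rsp-1, a head-to-head pair of SR protein genes, stood at 112. Genes of vesicle traffic and of the vacuolar ATPase were at 6 of 37. They included sec-61.B|trap-3, both parts of the machinery that moves proteins into the endoplasmic reticulum, at 205, and C17H12.2|vha-8 at 176. The ubiquitin pathway was at 4 of 19, led by aka-1|ubc-6 at 215, with ubq-2|frg-1 at 113. Proteasome subunits were at 2 of 21, RNA polymerase and general transcription genes at 1 of 16, aminoacyl-tRNA synthetases at 1 of 12 and DNA replication and repair genes at 1 of 24.

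The remaining lists gave few members. C-type lectins were at 1 of 54 (1.85%, 0.0469 to 9.89), the only list whose interval lay below 10.3%, with srz-97|clec-57 at 70.0. That upper end is close to 10.3%, and no correction was made over the 20 lists. Histones were at 3 of 61, as his-67|his-68 (85.2) and wapl-1|htz-1 (186), where htz-1 codes for the variant H2A.Z and wapl-1 for a cohesin release factor. Cuticle collagens were at 1 of 24, and neuropeptide and insulin genes at 0 of 11 (upper end of the exact interval 28.5%). Nuclear hormone receptors were at 3 of 19, namely nhr-47, nhr-68 (H12C20.7|nhr-68, 193) and nhr-142 (nhr-142|F44E7.9, 118).

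In head-to-head pairs were 4 of 62 autosomal homeobox genes, 5 of 78 unc genes and 8 of 41 lin genes, beside 3513 of 17242 autosomal protein-coding genes (20.4%). With starts paired only to the very next one, no pair of the listed homeobox or unc genes held a member. The homeobox list had 1 member within 1000 bp, malt-1|ceh-38 at 151, with 68.5 and 72.0 in replicates 1 and 2. Its summit was 37 bp from the nearest start of ceh-38, a ONECUT-class gene. It lay between the start of malt-1, 263 bp away, and a farther start of ceh-38, 56 bp away. That member is thus among the 215 with a summit between flanking starts. Of 8 paired lin genes, 5 had a member. lin-53|nra-2 (lin-53 codes for a histone-binding protein of the RbAp48 type) had a signal of 213, and vps-51|lin-35 (the retinoblastoma homologue) 111. Genes named lin share a mutant phenotype class, not a function. No gene of any list was within 1000 bp of 145 members, whose median signal was 88.9.

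**Figure D4:**
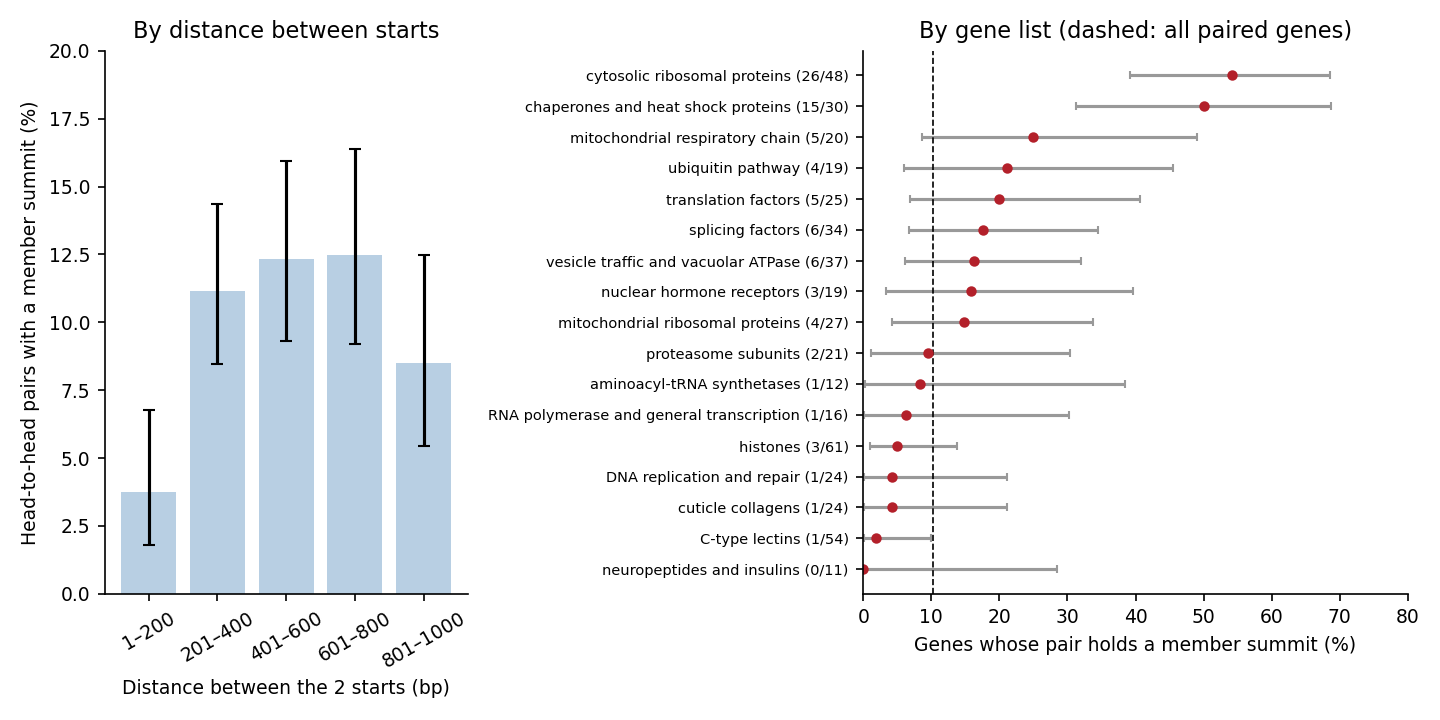
Left, percent of autosomal head-to-head gene pairs that hold a member summit by the distance in bp between their starts (bars from 0, exact 95% intervals). Right, percent of the genes of each list in such pairs whose pair holds a member (points, exact 95% intervals, counts in brackets), with all 3513 paired genes as the dashed line at 10.3%. Ribosomal protein genes (26 of 48) and chaperones (15 of 30) lie farthest to the right.

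Noncoding genes were also close to some summits. An annotated gene of the broad class ncRNA lay within 200 bp of 33 of the 235 members, a snoRNA gene near 3, an snRNA gene near 2, a piRNA gene near 2 and a miRNA gene near 1. Their part in the peaks was not tested. At eef-1A.1|rfc-4 it was the miRNA gene cel-mir-5549.

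Summits were richer in G and C than their surroundings. The central windows held 47.7% ± 8.43 GC (SD over 235 members) and the flanks, from 250 bp away, 35.3% ± 7.60. One-strand peaks had 46.8% and 35.8%. Midpoints of head-to-head pairs without a member had 34.2%. Differences in short words between summits and flanks therefore go with a difference in base composition, whose part in them was not tested.

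Of 9 motifs searched on both strands, 6 differed between the central windows and flanks of the same number of positions (exact McNemar test, two-sided, Benjamini-Hochberg over the 9 motifs). The GAGA repeat GAGAGA was in 37 of 235 summit windows (15.7%) and in 11 flanks (4.68%), exact adjusted p = 0.000469. The word CGTCTC was in 34 (14.5%) against 9 (3.83%), exact adjusted p = 0.000469. Both were among the leading words of an earlier scan over all peaks of these data, so their excess here is not independent evidence. CCGCCC, the core of a site of Sp1-type zinc fingers, was in 20 (8.51%) against 3 (1.28%), exact adjusted p = 0.00110. The E-box CACGTG, a site of bHLH proteins, was in 10 (4.26%) against 1 (0.426%), exact adjusted p = 0.0211. The E-box call was lost with the list of either replicate alone, and those of GAGAGA and TATAAA with the list of replicate 1 alone (exact adjusted p = 0.0694).

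The AT-rich words went the other way. TATAAA, the core of the TATA box, was in 9 summit windows (3.83%) and in 35 flanks (14.9%), exact adjusted p = 0.000469. The scrambled control ATTGNNTA, which has the base composition of the PBX-Hox site, was in 6 (2.55%) against 18 (7.66%), exact adjusted p = 0.0340. So a word with no known factor also differed from the flanks, a call lost with the list of either replicate alone.

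Members with these motifs differed widely in strength. Their signals ran from 60.9 to 719 for GAGAGA, 42.1 to 518 for CGTCTC and 53.3 to 339 for CACGTG. For TATAAA the range was narrower, 62.8 to 112. GAGAGA was in K01G5.10|tasp-1, drr-2|set-16 and hat-1|M03C11.3 (243, where hat-1 codes for a histone acetyltransferase), and the 37 members with it had a median of 92.5. CGTCTC was in F44E5.4|F44E5.5, drr-2|set-16, R107.5|cls-2 and iff-2|F54C9.14, with a median of 101.1 over the 34 members. CACGTG was in R107.5|cls-2, H12C20.7|nhr-68 and ndk-1|F25H2.6, with a median of 109 over 10. None of the 9 motifs was in 128 members, of median 98.5, among them 10 of the 15 strongest. In the 25 members with a ribosomal protein gene GAGAGA was in 0 (upper end of the exact interval 13.7%), against 37 of the 210 others (17.6%, 12.7 to 23.5), and CGTCTC was in 2 against 32.

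The sites known for PBX and Meis-type proteins were each in few of these summit windows. The PBX-Hox composite TGATNNAT was in 6 of 235 summit windows (2.55%, 0.943 to 5.47) and in 13 flanks (5.53%, 2.98 to 9.27), a difference that did not pass (exact McNemar test, adjusted p = 0.215). The PBX-Meis composite TGATTGAC was in 3 summit windows and 0 flanks (adjusted p = 0.281, exact McNemar test), and the Meis core TGACAG in 8 and 5 (adjusted p = 0.581, exact McNemar test). TGATTGAC was thus in 1.28% of members, beside 0.314% of midpoints of head-to-head pairs without a member and 0.395% of one-strand peaks. For TGACAG these shares were 3.40%, 2.39% and 3.75%. Against the midpoints no test was made. With 1 replicate's list the PBX-Hox composite was in 7 windows and 8 flanks (replicate 1) or 5 and 5 (replicate 2). With 3 and 0 windows the smallest unadjusted p of that test is 0.25.

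Members with the PBX-Hox composite were led by F54D5.9|dnj-13 and by nlt-1|ZK892.3 (nlt-1 codes for a lipid transfer protein), at 179, with 89.9 and 91.8 in replicates 1 and 2. The others were C37A2.8|E02D9.1 (89.7), cest-4|C17H12.11 (76.9), Y67H2A.2|micu-1 (71.3) and the weaker peak at nxf-1|C15H11.11 (6.76). TGATTGAC was in rpl-25.2|C34B7.1, in tag-65|ccz-1 (102, with 40.8 and 66.4 in replicates 1 and 2) and in clu-1|prp-40 (83.1, with 48.2 and 30.5). The site in tag-65|ccz-1, where ccz-1 codes for part of an activator of Rab7, is the reverse complement GTCAATCA in the sequence above.

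One-strand promoter peaks had the PBX-Hox composite more often than the members. It was in 51 of 506 of them (10.1%, 7.60 to 13.0) against 6 of 235, an odds ratio of 0.234 for members over one-strand peaks (two-sided Fisher's exact test, p adjusted over the 9 motifs = 0.00151). No other motif differed between the classes, with odds ratios of 0.672 to 3.26 and adjusted p from 0.529 to 1 (Fisher's exact test). The scrambled control was in 2.55% of members and 3.75% of one-strand peaks. The other autosomal peaks had the composite in 11.3% and X peaks in 11.0%. Midpoints of head-to-head pairs without a member had it in 7.54%, and windows 150 bp upstream of one-strand starts in 8.50%. The scrambled control was in 7.48% of these midpoints and 7.18% of these windows, and in 4.60% of other autosomal and 4.76% of X peaks. Members thus had the control as well as the composite less often than midpoints and start windows, a difference not tested.

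For the PBX-Hox composite, the flanks of the members (5.53%) were also below those of one-strand peaks (9.68%), a difference not tested. Among windows of at most 47.5% GC it was in 6 of 113 members (5.31%) and 42 of 275 one-strand peaks (15.3%), and above it in 0 of 122 and 9 of 231 (3.90%). The call of a difference was lost with the list of replicate 1 alone (7 of 135 against 27 of 260, odds ratio 0.472, adjusted p = 0.349, Fisher's exact test). By the same exact test it was also lost among windows of low GC (adjusted p = 0.0559), among peaks with a start within 200 bp (5 of 159 against 24 of 236, adjusted p = 0.0872) and among peaks in the lists of both replicates (2 of 113 against 15 of 185, adjusted p = 0.0967), with members lower in each case. Windows with no exon kept it, at 1 of 148 against 35 of 335 (Fisher's exact test, adjusted p = 0.000344).

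**Figure D5:**
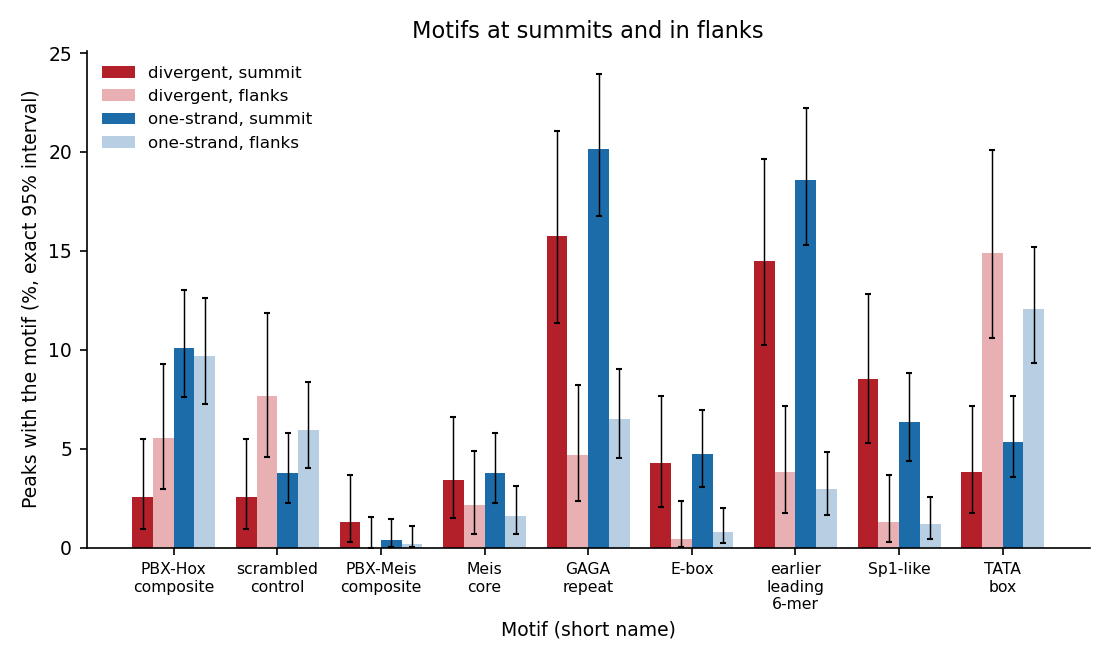
Percent of peaks with each of 9 motifs (bars from 0, exact 95% intervals) in the central window and in the flanks, for 235 members (red) and 506 one-strand autosomal promoter peaks (blue). The GAGA repeat and the leading 6-mer of the earlier scan are higher at summits than in flanks in both classes, the TATA box is lower, and the PBX-Hox composite is at 2.55% of members against 10.1% of one-strand peaks.

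A scan of all 2080 words of 6 letters, added after these results were seen, gave 131 words more frequent at the members' summits than in their flanks (6.3% of the words) and 96 less frequent (4.62%) by the exact McNemar test, adjusted over the 2080. GACGCA led, in 49 summit windows (20.9%) against 4 flanks (adjusted p = 9.06e-09, exact McNemar test). It was followed by GAGCGC (45 against 6) and GAGACC (42 against 9). The strongest of the less frequent words were CTGAAA (20 against 67) and AATTAT (9 against 52). The words that rose toward the summit were thus rich in G and C in these examples, and those that fell were rich in A and T.

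Members and one-strand peaks differed in 5 of the 2080 words (0.24%, Fisher's exact test, adjusted p under 0.05). AGCGCA was in 34 members (14.5%) and 21 one-strand peaks (4.15%), odds ratio 3.91, adjusted p = 0.00594 (Fisher's exact test). The word TACGCA was in 30 members and 22 one-strand peaks, and CGCAAC in 34 and 28. GCCAAA was in 28 and 19, and CTGGCA in 19 and 9, and each of these 4 words had an adjusted p of 0.0381 (Fisher's exact test). An unadjusted p under 0.05 stood beside 184 words.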

How the data were processed

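Anti-GFP ChIP-seq peaks of tagged CEH-20 were analysed from 2 biological replicates of 1 group, per the labels. The authors deposited peak lists on assembly ce11, ranked by or kept after a threshold on the irreproducible discovery rate (IDR), for each replicate and for both. For each peak the authors gave a signal (their measure of its strength, unit not named), a score scaled by IDR and a −log10 q-value. The aligner and peak caller are not given in the sources used here. Read counts were not part of these lists, so depth is unknown. Intervals and p-values cover counting error over peaks or genes, not a difference between conditions.

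Starts came from Ensembl release 115 (19973 protein-coding genes) and sequence from RefSeq, both WBcel235. Coordinates are 1-based. Motifs were searched up to 50 bp either side of a summit, and in flanks that start 250 bp from it. Overlap meant at least 1 bp. Tests were exact McNemar and Fisher tests, adjusted by Benjamini-Hochberg at 0.05. Each was tried on random autosomal positions, with and without a planted E-box. These positions were not chosen to have the difference in GC between summits and flanks, so the trial does not cover it. The rule for named members took the 15 strongest, the 3 strongest with each of 4 motifs, every member with TGATTGAC, the extremes of spacing and up to 4 members for each of 20 gene lists. Members, motifs and lists were chosen with earlier results of these data known. Alternatives were other lists, distances, windows and flanks, and each replicate's list alone. Python 3.11.15, numpy 2.4.6, scipy 1.17.1 and matplotlib 3.10.9 were used.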

Additional observations from a re-analysis of the deposited data

How the results depend on the processing

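Of 179 recomputed values, 145 stayed on the same side of the threshold and of no difference, or near the main value, counting differences that fell to 0. Another 4 odds ratios against one-strand peaks, called neither before nor after, turned direction, namely ATTGNNTA with a window of 100 bp (1.14 for 0.672), CACGTG with the larger list (1.11 for 0.893), TGACAG with replicate 2 alone (1.17 for 0.903, and 0.763 with replicate 1) and CCGCCC with replicate 1 alone (0.883 for 1.38, and 1.42 with replicate 2). The number of members was 135 to 164 with the list of 1 replicate alone and 153 when both strands had to lie within 500 bp. The share in both lists was 37.0% when overlap had to cover 50% of both peaks. The share of pairs with a member was 6.10 to 7.45% with 1 replicate's list and 7.76% for starts at most 2000 bp apart. The PBX-Hox composite was lower at summits than in flanks moved to 500 bp, by -5.53 percentage points (exact McNemar test, adjusted p = 0.0439), an alternative added after seeing the data, and with 1 replicate's list the difference was -0.741 to 0 points. Its odds ratio for members over one-strand peaks was 0.255 to 0.472 with 1 replicate's list. It was 0.311 at low GC, 0.287 for starts within 200 bp, 0.204 in both lists and 0.0583 in windows with no exon, all added after seeing the data, and 0.147 and 0.491 with windows of 25 and 100 bp. Motifs that differed from the flanks numbered 2 with a window of 25 bp and 2 to 4 with 1 replicate's list. The GAGA repeat, the E-box, the Sp1-type core and the scrambled control lost their calls with the 25 bp window. By adjusted p of the exact McNemar test the E-box also lost it with flanks at 400 bp (0.231), in head-to-head members (0.0586) and with replicate 1 (0.105) or 2 (0.372) alone. The scrambled control lost it with the 100 bp window (0.337), flanks at 400 bp (0.118) and each replicate (0.0694, 0.0883), and GAGAGA and TATAAA with replicate 1 alone (0.0694). Motifs that differed from one-strand peaks numbered 2 with a window of 100 bp, where GAGAGA also passed (odds ratio 0.580), and 0 to 1 with 1 replicate's list. The cause was not tested. The PBX-Meis composite against one-strand peaks could not be given an odds ratio with the 25 bp window or with replicate 1 alone, since 1 or both classes had none. Fewer peaks enter with 1 replicate's list. No paired analysis was possible because both samples belong to 1 group.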

Other observations

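Some words were noticed in the printed sequences and then counted in all windows. They are descriptions, since they were chosen on these peaks. TACACTC, on either strand, occurs in the windows of K01G5.10|tasp-1, rpl-15|K11H12.8 and rpl-20|Y17G9B.5, that is in 3 of the 15 strongest members. It was in 6 of all 235 members (2.55%, exact 95% interval 0.943 to 5.47), in 1 of their flanks and in 8 of 506 one-strand peaks (1.58%). AGACGCAG, which holds GACGCA, the leading word of the scan, was in 18 members (7.66%), in 1 flank and in 52 one-strand peaks (10.3%). TTCNNGAA, an inverted repeat of the unit that heat shock factor binds, was in 3 of 14 members with a listed chaperone gene (21.4%, 4.66 to 50.8). It was in 12 of all members (5.11%) and in 16 of their flanks (6.81%).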
